A study of Homo sapiens with 4 samples.

Results

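This account covers 9 human genes that report on cell adhesion and on the epithelial-mesenchymal transition (EMT). They are 3 classical cadherins (CDH1, CDH2 and CDH11), the intermediate filament gene VIM and the 5 EMT transcription factors SNAI1, SNAI2, TWIST1, ZEB1 and ZEB2. They were taken by symbol from a table of 60725 genes, and all 9 were found. RNA-seq was performed on RPE1 SunTag cells, an immortalized line of retinal pigment epithelial origin that expresses the SunTag system, and all libraries came from this line. Cells received 10 nM of siRNA, were transfected again after 48 h and were harvested 72 h after the second round, on day 5. By the treatment protocol in the sample labels, the control group (titled scramble) received the Silencer Select Negative Control No. 2 siRNA, and the TOP2B knockdown group received the Dharmacon siRNA pool against human TOP2B. There were 2 libraries in each group, which the study calls biological replicates, and each library represents a whole culture, so that fewer cells of a type and less RNA per cell cannot be told apart.

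Classical cadherins are transmembrane proteins that bind their own kind on neighbouring cells and are tied to actin by catenins. Epithelia typically rely on E-cadherin (CDH1), and mesenchymal and neural cells on N-cadherin (CDH2) or cadherin-11 (CDH11). In EMT, zinc finger factors of the SNAI and ZEB families and the helix-loop-helix factor TWIST1 repress CDH1 and other epithelial genes, while vimentin (VIM) is a common mesenchymal marker. ZEB1 and ZEB2 are in turn held down by microRNAs of the miR-200 family, in a loop of mutual repression, and the retinal pigment epithelium is known for a ready shift towards a mesenchymal state in culture.

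The mature sequences of these microRNAs are shown because they define the words by which the 3′ UTRs of the 9 genes were read. All come from RefSeq (GRCh38.p14), are written 5′ to 3′, and have the seed, bases 2 to 8, in capitals. The first 3 share one seed, the next 2 share another, and miR-205, a further microRNA known to act on both ZEB genes, has its own.
hsa-miR-200b-3p: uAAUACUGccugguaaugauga
hsa-miR-200c-3p: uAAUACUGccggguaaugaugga
hsa-miR-429: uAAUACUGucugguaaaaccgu
hsa-miR-200a-3p: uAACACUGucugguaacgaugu
hsa-miR-141-3p: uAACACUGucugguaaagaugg
hsa-miR-205-5p: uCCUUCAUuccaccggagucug

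The reverse complements of the seeds were searched on the transcript strand of the 3′ UTR of each gene's canonical transcript (GENCODE v44). CAGTATT, the match to miR-200b, miR-200c and miR-429, occurred 6 times in the ZEB1 3′ UTR of 2540 bases and 5 times in the ZEB2 3′ UTR of 5370 bases. It occurred once each in CDH11 and SNAI2 and in none of the other 5 genes. For comparison, this word was held at least once by 20.05% of the 12385 tested genes whose 3′ UTR had 50 bases or more. Among 3′ UTRs within 25% of the length of the ZEB1 3′ UTR, 28.5% held the word and 0.0452% held it at least 6 times. For the length of the ZEB2 3′ UTR, these shares were 46.4% and, for at least 5 times, 0.0820%. The windows, of 2210 and 1219 3′ UTRs, included ZEB1 and ZEB2 themselves, and no other 3′ UTR in them reached these counts. CAGTGTT, the match to miR-200a and miR-141, occurred 3 times in ZEB1, 4 times in ZEB2 and in none of the other 7 genes, against 21.8% of all 3′ UTRs with at least 1. ATGAAGG, the match to miR-205, occurred once in ZEB1 and once in CDH11, against 13.3% of all. The matches are descriptions of sequence, and the words do not overlap one another.

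The first match to each miR-200 seed in ZEB1 and in ZEB2 is shown as an example with 8 bases on either side and the match in capitals. All 4 lie in the 3′ UTR of the gene and are read on its own strand (GRCh38), which is plus for ZEB1 and minus for ZEB2.
ZEB1, CAGTATT, chr10:31527625-31527647: tatcttatCAGTATTatcactct
ZEB2, CAGTATT, chr2:144389045-144389067: ccatacatCAGTATTtttattat
ZEB1, CAGTGTT, chr10:31528038-31528060: atcagaatCAGTGTTtgtgattg
ZEB2, CAGTGTT, chr2:144389229-144389251: attttgtaCAGTGTTaaggccta
MIR200CHG and MIR205HG, the host genes of miR-200c with miR-141 and of miR-205, had 0 counts in all 4 libraries, and mature microRNAs were not measured. For miR-200b, miR-200a and miR-429, which lie together on chromosome 1, no host transcript was looked at.

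Library totals were between 20310259 and 23887013 counts, so that 1 CPM (counts scaled to library size by TMM) rested on 20.2 to 23.98 counts. TOP2B itself had 155 and 143 CPM in the control libraries and 15.3 and 13.3 CPM in the knockdown libraries. This left 9.58% of the control level (log2 fold change -3.38, SE 0.14, edgeR adjusted p = 5.1e-06). Of 13 markers of retinal pigment epithelium, 7 were tested and 0 were called. RPE65, RGR, TYR and TTR were at 0 in every library, while MITF (38.1 to 44.8 CPM), OTX2 (11.2 to 13.4 CPM), KRT8 and KRT18 were expressed. Regulators of early pigment epithelium and simple keratins were thus present, and RPE65 and RGR of the visual cycle were not detected. BEST1, PMEL and SERPINF1 were low, between 0.307 and 2.22 CPM, and RLBP1 had at most 1 count and TYRP1 at most 7 in a library. Of 8 fibroblast, 6 endothelial and 4 blood markers, 4, 5 and 0 were tested and 0 were called. Their summed levels were 625 to 685, 26.1 to 37.5 and 0.438 to 0.459 CPM in control, and 544 to 579, 22.5 to 27.5 and 0.198 to 0.236 CPM in knockdown. LUM and the blood markers CD3E and HBB were at 0, and CDH5 had 1 count in all. By contrast, THY1 (420 to 503 CPM) and PDGFRB (113 to 174 CPM) of the fibroblast markers were expressed in all 4 libraries. The summed fibroblast level came mostly from these genes. COL1A1 (4.64 to 7.40 CPM) and PDGFRA (1.36 to 3.06 CPM) were lower. COL3A1, COL1A2 and DCN had at most 6, 2 and 2 counts in a library. Of the endothelial markers, TIE1 (13.3 to 23.7 CPM) and KDR (7.58 to 11.9 CPM) were expressed in all 4 libraries. PECAM1 (0.248 to 1.00 CPM), VWF (0.236 to 0.626 CPM) and TEK (0.131 to 0.518 CPM) were low.

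Among the 9 genes, 7 had enough counts to be tested for the effect of TOP2B depletion, and none was called at an adjusted p below 0.05. Across all 15356 genes tested, 10.8% were called, 6.66% higher and 4.18% lower in knockdown. The 9 genes were present at very different levels. VIM and CDH2 were abundant, the 5 transcription factors were lower, and CDH1 and CDH11 were at the limit of detection. The estimates of the 7 tested genes ran from -0.03 to 0.23 on the log2 scale with a median of 0.11, 6 above 0 and 1 below. This tally gives no common direction, because the signs of TWIST1, VIM, ZEB1 and SNAI1 depended on the libraries used. Over all tested genes the median was -0.0029 and the range from the 5th to the 95th percentile was -0.68 to 0.80. None of the 7 had an unadjusted p below 0.05, and DESeq2 called 0 of them as well. With the replicate number as a block, edgeR called CDH2 and ZEB2 higher (adjusted p = 0.00120 and 0.00234). That fit called 3440 genes higher and 3346 lower over all genes. The labels give the numbers no shared origin, but deviations of same-numbered libraries from their group means correlated at r = 0.609 over 13327 genes. Only ZEB2 had control and knockdown values that did not overlap, which was the case for 54.3% of all genes tested, so that this lack of overlap is no result about ZEB2.

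**Figure D1:**
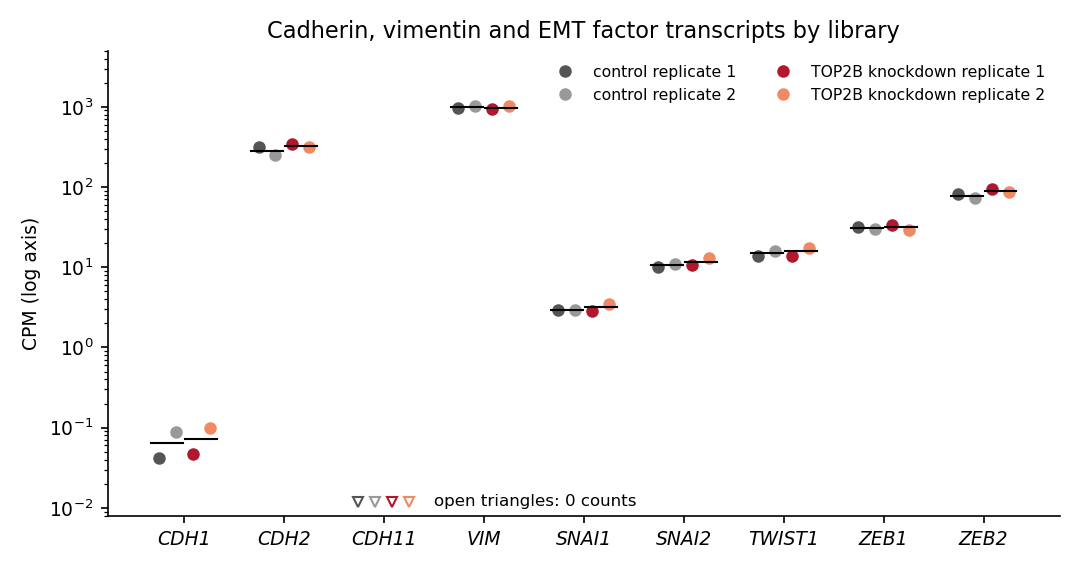
Level of each gene in each of the 4 libraries, in CPM on a log axis, with points for libraries, black lines for the mean of the 2 libraries of a group and open triangles for 0 counts. VIM lies between 937 and 1018 CPM and CDH2 between 247 and 347 CPM, and CDH1 stays below 0.1 CPM.

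Of the classical cadherins, CDH2 (ENSG00000170558, chr18:27932879-28177946, minus strand) was the abundant one. It had 313 and 247 CPM in the control libraries and 347 and 311 CPM in the knockdown libraries. The groups overlapped narrowly, with knockdown replicate 2 just below control replicate 1. The mean was 280 ± 46.6 CPM in control and 329 ± 25.6 CPM in knockdown (SD, n = 2 each), a log2 fold change of 0.23 with SE 0.15. The 95% interval was -0.11 to 0.58 and edgeR's adjusted p was 0.378, so a rise of up to 1.49-fold or a fall to 0.927 of the control level lay within the interval.

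E-cadherin was all but undetected. CDH1 (ENSG00000039068, chr16:68737292-68835537, plus strand) had 1 and 2 counts in control and 1 and 2 counts in knockdown. All of these lie under 3 counts, which correspond to 0.125 to 0.149 CPM in these libraries, and no fold change is given. CDH11 (ENSG00000140937, chr16:64943753-65126112, minus strand) had 0 counts in all 4 libraries. A count of 0 allows a level of up to 3 counts, or 0.125 to 0.149 CPM in these libraries, and this limit covers counting error only.

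VIM (ENSG00000026025, chr10:17228241-17237593, plus strand) encodes vimentin and was the most abundant of the 9. It had 968 and 1018 CPM in control and 937 and 1010 CPM in knockdown. The groups overlapped, with both knockdown values below the upper control value. The log2 fold change was -0.03 with SE 0.15, the 95% interval ran from -0.36 to 0.31 and edgeR's adjusted p was 0.930. Of the exon bases of VIM, 24.6% are shared with VIM-AS1 and ENSG00000234961, both on the opposite strand, and the counting is not stated to use strand. VIM-AS1 itself had 27 and 18 counts in control and 24 and 40 in knockdown.

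The SNAI factors are zinc finger repressors that bind E-box motifs in CDH1. SNAI1 (ENSG00000124216, chr20:49982980-49988886, plus strand) had 2.92 and 2.94 CPM in control and 2.83 and 3.52 CPM in knockdown. Here 1 knockdown library was below both control libraries and 1 was above both. These values rest on 60 to 71 counts per library, and the log2 fold change of 0.11 had the widest 95% interval of the 7, from -0.41 to 0.64 (SE 0.24, edgeR adjusted p = 0.810).

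SNAI2 (ENSG00000019549, chr8:48917598-48921740, minus strand), also called Slug, was more abundant than SNAI1 per kilobase in every library. It had 10.2 and 11.04 CPM in control and 10.6 and 13.0 CPM in knockdown, and the groups overlapped. The log2 fold change was 0.15 with SE 0.17 (95% interval -0.22 to 0.52, edgeR adjusted p = 0.613).

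TWIST1 (ENSG00000122691, chr7:19020991-19117636, minus strand) had 13.7 and 16.04 CPM in control and 13.998 and 17.4 CPM in knockdown. The values of the groups interleaved, and replicate 2 was the higher library in each group. The log2 fold change was 0.08 with SE 0.16 (95% interval -0.29 to 0.44, edgeR adjusted p = 0.810).

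The ZEB factors carry 2 zinc finger clusters with a homeodomain-like region between them. ZEB1 (ENSG00000148516, chr10:31318495-31529814, plus strand) had 31.9 and 29.8 CPM in control and 33.8 and 28.8 CPM in knockdown. The control values lay inside the range of the knockdown values. Its log2 fold change was 0.02 with SE 0.13 (95% interval -0.27 to 0.32, edgeR adjusted p = 0.940).

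ZEB2 (ENSG00000169554, chr2:144364364-144521057, minus strand) had 81.2 and 72.4 CPM in control and 93.5 and 85.7 CPM in knockdown. Both knockdown libraries were above both control libraries. The log2 fold change was 0.22 with SE 0.12 (95% interval -0.05 to 0.49), the unadjusted p was 0.0997 and edgeR's adjusted p was 0.287. ZEB2 therefore had the smallest p of the 9 genes without passing the test. The ratio of ZEB2 to ZEB1 counts, not scaled for length, was 2.55 and 2.43 in control and 2.77 and 2.97 in knockdown. This ratio was higher in both knockdown libraries, but no test of it was made.

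**Figure D2:**
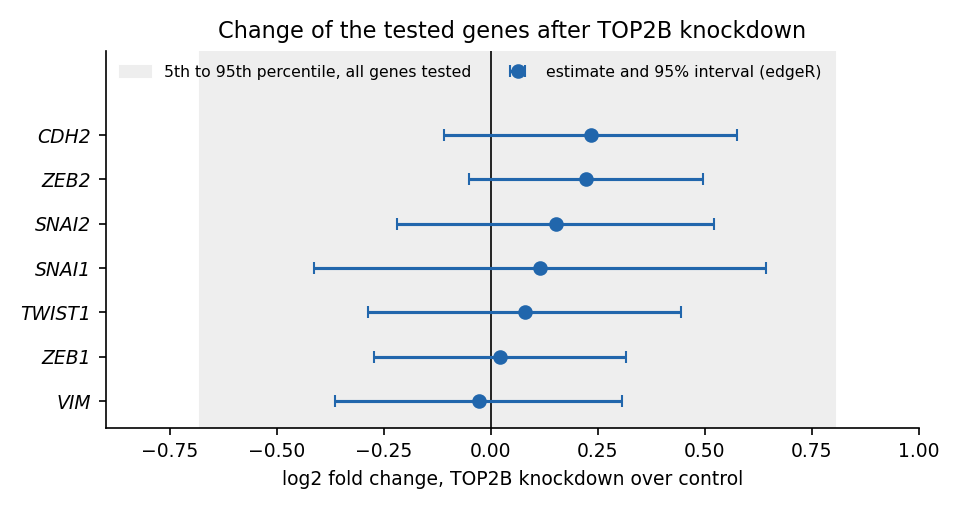
Log2 fold change of TOP2B knockdown over control for the 7 tested genes, with points for the edgeR estimates, bars for their 95% intervals and a grey band for the range from the 5th to the 95th percentile of all genes tested. Every interval includes 0 and lies inside the grey band.

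When 1 library was left out at a time, the estimates of CDH2 (0.08 to 0.41), ZEB2 (0.15 to 0.31) and SNAI2 (0.01 to 0.30) stayed above 0. Those of TWIST1, VIM, ZEB1 and SNAI1 changed sign with the library left out, so that no direction is given for these 4 genes.

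Levels were compared between genes only after division by length, as CPM per kilobase of exon. Over the union of annotated exons, the order in control was VIM, CDH2, TWIST1, ZEB1, SNAI2, ZEB2, SNAI1, CDH1 and CDH11. VIM stood at 192 ± 6.74 and CDH2 at 32.6 ± 5.42 CPM per kilobase (SD, n = 2). TWIST1 led the factors at 7.45 ± 0.820, followed by ZEB1 at 3.57 ± 0.173, SNAI2 at 3.23 ± 0.186, ZEB2 at 2.94 ± 0.240 and SNAI1 at 1.72 ± 0.00670 CPM per kilobase. Only SNAI2 and ZEB2 overlapped among neighbours of this order. CDH1 followed at 0.0106 CPM per kilobase on at most 2 counts per library. In knockdown the order was the same, and there ZEB1 (3.62 ± 0.406), SNAI2 (3.59 ± 0.512) and ZEB2 (3.43 ± 0.209) overlapped as neighbours.

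The place of ZEB2 depended on the length used. Its union of exons is 26151 bases and its canonical transcript 9265 bases. With canonical lengths ZEB2 reached 8.29 ± 0.676 CPM per kilobase in control, next to TWIST1 at 9.13 ± 1.00, and the values of the 2 genes overlapped. In knockdown they stood at 9.67 ± 0.589 and 9.64 ± 1.49, which overlapped again. ZEB1 and SNAI2 also overlapped on this scale in both groups, while VIM, CDH2 and SNAI1 held the same places as with the union of exons. Of the summed level of the 5 factors by canonical length, TWIST1 made up 31.2% ± 3.05 in control and 30.2% ± 3.39 in knockdown. ZEB2 made up 28.4% ± 2.67 and 30.4% ± 3.15, and SNAI1 5.88% ± 0.0503 and 5.83% ± 0.647 (SD, n = 2 each). These shares differed between the groups by less than the spread between replicates.

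**Figure D3:**
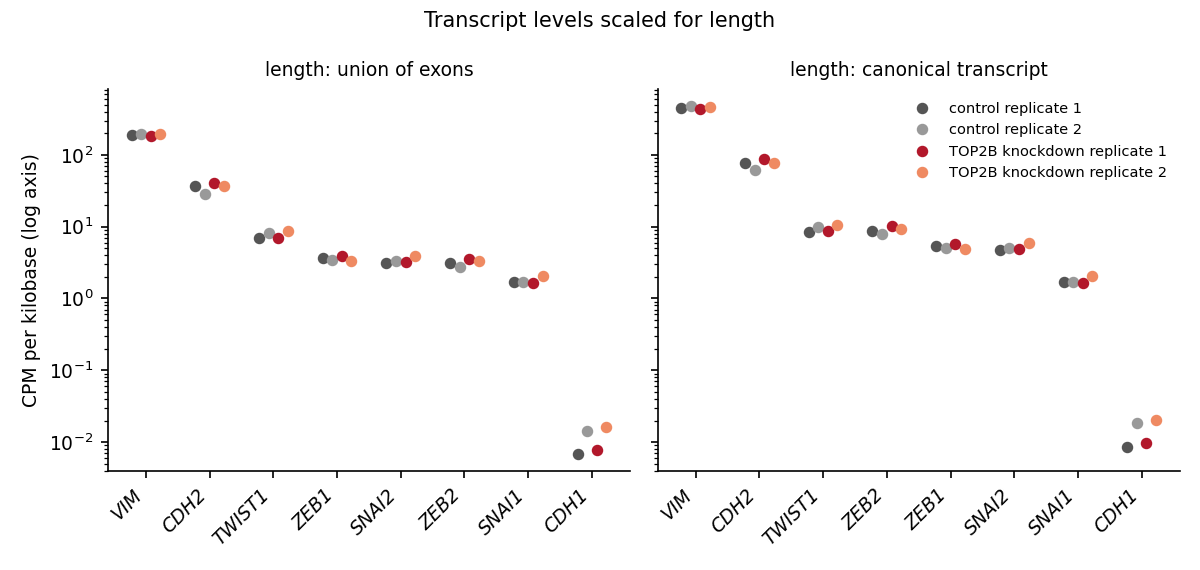
CPM per kilobase on a log axis in each of the 4 libraries, scaled by the union of exons (left) and by the canonical transcript (right), with CDH11, at 0 counts, left out. ZEB2 moves from the sixth to the fourth place in control between the 2 panels, while VIM and CDH2 lead both.

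The cadherins were then read as a family of 23 genes, the 3 above and 20 others. Counts allowed a test for 7, namely CDH2, CDH13, CDH4, CDH24, CDH18, CDH6 and CDH8, and none of the 7 was called. A further 6, CDH11 among them, were at 0 in every library, 6 others, CDH1 among them, had at most 1 to 3 counts in any library, and 4 lay between. CDH2 held 43.2% ± 0.790 of the summed cadherin level per kilobase of exon in control and 45.9% ± 1.30 in knockdown (SD, n = 2 each). With canonical lengths the share of CDH2 was 56.7% ± 0.767 and 59.8% ± 1.27. On either length CDH2 held the largest share, and its knockdown shares were above its control shares in both. A share depends on the other cadherins as well, and no test of it was made. The CPM of CDH2 itself overlapped between the groups.

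CDH13 (T-cadherin), which is held in the membrane by a lipid anchor and lacks the cytoplasmic tail that binds catenins, had 183 and 153 CPM in control and 152 and 131 CPM in knockdown. The knockdown values were below the control values (log2 fold change -0.25, SE 0.14, edgeR adjusted p = 0.299), and the call was not made. Only with the replicate number as a block did edgeR call CDH13 lower (adjusted p = 0.000530). Its share of the summed level per kilobase of exon was 20.3% ± 0.472 in control and 15.4% ± 0.0444 in knockdown. Of the exon bases of CDH13, 21.4% are shared with CDH13-AS2 on the opposite strand. CDH24 and CDH8, which are named here after their values were seen, had the smallest p of the family. CDH8, a type II classical cadherin, had 0.709 and 0.613 CPM in control and 1.51 and 1.44 CPM in knockdown, with an unadjusted p of 0.00814 and an edgeR adjusted p of 0.0646. CDH24 had 43.7 and 36.8 CPM in control and 54.0 and 47.8 CPM in knockdown, with an unadjusted p of 0.0304 and an edgeR adjusted p of 0.139. Neither passed the test over all genes.

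**Figure D4:**
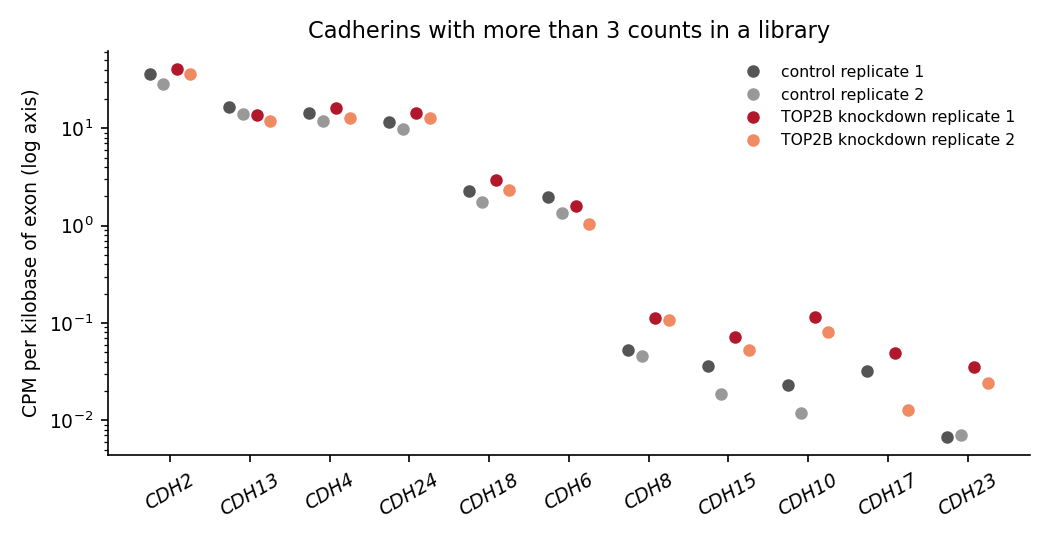
CPM per kilobase of exon on a log axis for the 11 cadherins with more than 3 counts in a library, in each of the 4 libraries, with libraries at 0 counts not drawn. CDH2 is the highest cadherin in every library, and CDH13, CDH4 and CDH24 follow between 9.8 and 17.

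The partners and neighbours of these genes were described from 7 lists with 130 genes, of which 88 were tested and 5 were called higher and 6 lower in knockdown. This is 12.5% of the tested genes, beside 10.8% of all genes, and their median log2 fold change was -0.06. Counts, not list tests, are given, and the lists were drawn up with earlier results of these data known.

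Of the 12 adherens junction partners, which link cadherins to actin or to other junctions, all were tested, 1 was called higher and 0 lower, with a median of -0.07. The one called was JUP, plakoglobin, which binds the tail of classical cadherins and also serves desmosomes. JUP had 19.4 and 20.6 CPM in control and 26.4 and 40.2 CPM in knockdown. Knockdown replicate 2 stood well above the other 3 libraries (log2 fold change 0.74, SE 0.19, edgeR adjusted p = 0.0328), and without it the adjusted p was 0.218. Of the other cadherins, 6 of 20 were tested and 0 were called, with a median of 0.25.

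Of the 16 other EMT transcription factors and partners reported here, 13 were tested and 0 were called by edgeR, with 2 at an unadjusted p below 0.05 and a median of 0.04. The gene named for the highest mean CPM, not scaled for length, was TCF3, which encodes the helix-loop-helix E proteins that pair with TWIST1. TCF3 had 83.1 and 91.8 CPM in control and 96.1 and 103 CPM in knockdown (log2 fold change 0.18, SE 0.12, edgeR adjusted p = 0.369), and the call was not made. Only with the replicate number as a block did edgeR call TCF3 higher (adjusted p = 0.00661). Of 12 genes for the turnover of the SNAI1 and SNAI2 proteins, all were tested, 0 were called higher and 1 lower, with a median of -0.07. BTRC, the ubiquitin ligase subunit that recognizes phosphorylated SNAI1 as well as other proteins such as beta-catenin, had 61.2 and 65.5 CPM in control and 35.9 and 35.4 CPM in knockdown. BTRC fell by 0.83 on the log2 scale (SE 0.12, edgeR adjusted p = 0.00278), and its call held without each library in turn.

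Of 35 epithelial genes, 17 were tested, with 1 called higher, 1 lower and a median of -0.13. EPCAM, GRHL2, KRT5 and RAB25 were at 0 in every library, as CDH1 nearly was. PKP2, a desmosomal plaque protein, had 129 and 149 CPM in control and 73.3 and 85.9 CPM in knockdown (log2 fold change -0.80, SE 0.14, edgeR adjusted p = 0.00608). MARVELD2, tricellulin of tight junctions, had 6.55 and 6.003 CPM in control and 10.5 and 9.26 CPM in knockdown (log2 fold change 0.66, SE 0.17, edgeR adjusted p = 0.0387). The call of MARVELD2 was lost in DESeq2 (adjusted p = 0.0832), and without control replicate 1, control replicate 2 or knockdown replicate 1 (adjusted p = 0.0509, 0.134 and 0.197).

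Of 30 mesenchymal genes, 26 were tested, 3 were called higher and 4 lower, with a median of 0.10. This is 26.9% of those tested, beside 10.8% of all genes, and the highest share of the 7 lists. As the lists were drawn up with earlier results known, no conclusion is drawn from this share. The 7 calls thus went both ways while VIM and CDH2 were not called. FN1, the matrix protein fibronectin, had 1913 and 1431 CPM in control and 4162 and 3143 CPM in knockdown (log2 fold change 1.13, SE 0.21, edgeR adjusted p = 0.0103). AXL, a receptor tyrosine kinase, had 728 and 663 CPM in control and 1573 and 1424 CPM in knockdown (log2 fold change 1.11, SE 0.16, edgeR adjusted p = 0.00281). Both sets of values were clear of overlap, and the adjusted p of FN1 was 0.0729 without knockdown replicate 1. POSTN, the matrix protein periostin, had 1 and 0 counts in control and 32 and 14 in knockdown (1.51 and 0.693 CPM). The mean of the knockdown libraries was at least 8.58-fold higher against 3 counts per control library, and this bound leaves out the spread between them. Without either knockdown library POSTN had too few counts to be tested. POSTN is named here after its values were seen.

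Among the mesenchymal genes that fell, S100A4, a calcium-binding protein, had 1.71 and 2.24 CPM in control and 0.377 and 0.644 CPM in knockdown (log2 fold change -1.94, SE 0.39, edgeR adjusted p = 0.0127). Its values rest on few counts, 41 and 51 in control and 8 and 13 in knockdown, and it did not reach the filter at a mean of 100 counts. TAGLN, an actin-binding protein of smooth muscle, had 8.05 and 9.55 CPM in control and 3.49 and 3.57 CPM in knockdown (log2 fold change -1.32, SE 0.19, edgeR adjusted p = 0.00320). Of the exon bases of TAGLN, 47.8% are shared with PCSK7 and another gene, so that its value is uncertain. LOX, which cross-links collagen, had 867 and 725 CPM in control and 528 and 473 CPM in knockdown (log2 fold change -0.67, SE 0.16, edgeR adjusted p = 0.0244). SPARC, a collagen-binding matrix protein, had 1628 and 1390 CPM in control and 1050 and 966 CPM in knockdown (log2 fold change -0.58, SE 0.16, edgeR adjusted p = 0.0485). The call of SPARC was lost with library size alone as scaling (adjusted p = 0.0508), with a filter at a mean of 100 counts (0.0560), and without any 1 of the 4 libraries (0.100 to 0.357), and that of LOX without control replicate 1 or either knockdown replicate (0.0856 to 0.205).

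Of 5 microRNA hosts and antisense RNAs of these genes, 2 were tested and 0 were called, with a median of 0.16. ZEB1-AS1, whose exons overlap the start of ZEB1 on the opposite strand, had 61 and 40 counts in control and 61 and 54 in knockdown. ZEB2-AS1 had 1 count in each control library and 3 in each knockdown library. SNAI3-AS1, named for the highest mean CPM, not scaled for length, had 6.88 and 6.66 CPM in control and 7.54 and 5.50 CPM in knockdown, and the groups overlapped.

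**Figure D5:**
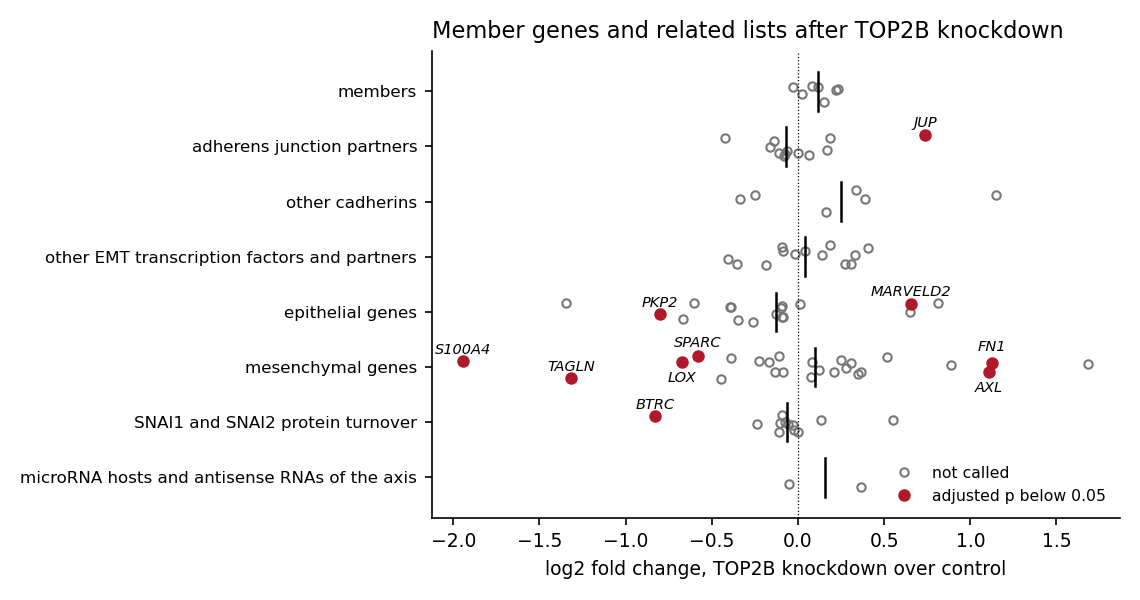
Log2 fold change of TOP2B knockdown over control for each tested gene of the 9 and of the 7 related lists, with filled points for genes called at an adjusted p below 0.05, open points for the others and a black bar for the median of each row. POSTN, whose fold is a lower bound, is not drawn, and none of the 7 tested genes in the top row is called.

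The genes whose pattern over the 4 libraries was most like that of ZEB2 were sought among the 9479 tested genes whose mean reached 10 CPM, by the root-mean-square difference of centred log2 CPM. They were SRD5A3 (0.00992), JADE1 (0.0116) and SLC7A5 (0.0129), an enzyme of dolichol synthesis, a chromatin reader and an amino acid transporter. SLC7A5, as the example, had 139 and 124 CPM in control and 163 and 147 CPM in knockdown. With only 4 libraries, 222 genes lay within 0.05 of ZEB2, so that this likeness is not particular to the 3 named.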

How the data were processed

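Poly(A) RNA was measured in 2 control and 2 TOP2B knockdown libraries. The authors checked reads with FastQC 0.11.6, aligned them to GRCh38 with STAR 2.5.4a and deposited raw counts per gene (Gencode v24). The methods name an unstranded setting for the signal output of STAR but no strand for the counts, and the file headers name stranded paired-end reads where the methods give single-end reads. The 4 further columns, identical second copies, were not used. A gene was tested where 2 or more libraries held 10 counts or more (15356 of 60725 genes), with edgeR 4.0.16 in R 4.3.3 (quasi-likelihood test, TMM, knockdown against control without covariates, p-values adjusted by Benjamini-Hochberg over all genes tested, called below 0.05). Symbols, coordinates and lengths came from GENCODE v44, which named 98.9% of the tested genes, so that exon lengths may differ from those counted. The fit was tested on simulated data.

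The members and lists were chosen with earlier results of these data known. Genes of the lists that are not reported here were left out of the list counts and medians. All 9 genes were named, as was TOP2B. From each list, called genes that averaged 1 CPM or more were named, up to the 6 with the largest change, or else the gene with the highest mean. For the gene with the smallest p, the 3 most alike genes were named. Alternatives were DESeq2 1.42.0, its size factors, library size alone, no filter, a mean of 100 counts as filter, fits without each library, a block for the replicate number, and canonical lengths. With 2 libraries per group, p-values measure only the spread between these cultures.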

Additional observations from a re-analysis of the deposited data

How the results depend on the processing

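None of the 7 tested genes among the 9 was called under DESeq2, its size factors, library size alone, no filter, the filter at a mean of 100 counts (6 tested) or without any 1 library (0 to 0 in either direction). With the replicate number as a block, 2 were called higher, CDH2 (log2 fold change 0.24, adjusted p = 0.00120) and ZEB2 (0.22, adjusted p = 0.00234). Of the other named genes, CDH13 (-0.25, adjusted p = 0.000530) and TCF3 (0.19, adjusted p = 0.00661) were called as well. The labels give the numbers no shared origin, and the deviations of the replicates of both groups correlated at r = 0.609 over 13327 genes. The block gave 3440 genes higher and 3346 lower over all genes, and 27 higher and 24 lower over the related lists.

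Without a filter, 985 genes were called lower over all genes, and 10 higher and 10 lower over the lists. Without 1 library, counts over all genes ran from 708 to 1003 higher and from 452 to 535 lower, and over the lists from 3 to 6 higher and from 4 to 7 lower. The 3 came without knockdown replicate 2, where JUP was not called and POSTN had too few counts to be tested. Estimates changed sign for TWIST1 (from -0.0796 without knockdown replicate 2 to 0.233 without knockdown replicate 1), VIM (from -0.0763 without knockdown replicate 2 to 0.0292 without knockdown replicate 1), ZEB1 (from -0.0935 without knockdown replicate 1 to 0.140 without knockdown replicate 2), SNAI1 (from -0.0416 without knockdown replicate 2 to 0.269 without knockdown replicate 1) and SNAI3-AS1 (from -0.296 without knockdown replicate 1 to 0.163 without knockdown replicate 2). Leaving out a control library also changed the sign for TWIST1 (-0.032 without control replicate 1), VIM (0.014 without control replicate 2) and ZEB1 (-0.0204 without control replicate 2). In these fits the lone library of a group is assumed to vary like the others, and the cause of each change was not tested. Depth limits SNAI1, at 60 to 71 counts, and leaves CDH1 and CDH11 without a test.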
